A study of Mustela putorius furo with 8 samples.

Results

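A set of 10 genes of the contractile and matrix programme was followed in single cells of wild-type and CFTR-knockout ferret duct cultures. The set held FN1, TAGLN, ACTA2, CALD1, ANKRD1, PALLD, MYL9, TPM1, TPM2 and CNN1, that is 10 of the 27912 genes in the count matrices, each found by its symbol. The genes were chosen by their measured CF and WT levels in these same libraries, so the levels are given here as a description, without a test.

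Fibronectin, the product of FN1, is a secreted glycoprotein that cells assemble into matrix fibres and grip through integrins. TAGLN, ACTA2, CALD1, MYL9, TPM1, TPM2 and CNN1 encode parts or partners of actomyosin filaments, PALLD crosslinks actin in stress fibres, and ANKRD1 encodes a nuclear cofactor known as a target of YAP. Smooth muscle, pericytes and activated stellate cells of the pancreas are known for high levels of many of these genes, while epithelial cells that spread or take on mesenchymal features raise some of these genes as well.

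The study grew pancreatic ductal epithelia (PDE) from newborn ferrets of 1 to 3 days of age that were WT or homozygous for a CFTR knockout (CFTR KO/KO), called CF here. CFTR is the anion channel lost in cystic fibrosis. The cells had been passaged 10 times to remove other cell types, were placed at an air-liquid interface (ALI), and were harvested, with dead cells removed, for 10x single-cell RNA sequencing at day 2, 5, 7 or 9. According to the study, the cells of several animals were pooled for each genotype. Each genotype and day was therefore 1 library, the spread between animals was not measured, and all intervals below are 95% intervals that cover counting error only. The difference between genotypes cannot be told apart from a difference between the animals pooled or between libraries.

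The 8 libraries held 1607 to 6224 retained cells and 34735952 to 114585136 unique molecular identifiers (UMIs, which count captured RNA molecules). The median was 14948.5 to 23427 UMIs a cell, and CF day 7 was the smallest library, with 411 of its 1607 cells under 3000 UMIs. Any pair of libraries shared at most 14 cell barcodes. The cultures carried the markers of an epithelium in every library, with 8518 to 11119 CPM (counts per 1000000 UMIs) summed over 8 genes such as KRT19 and EPCAM. Endothelial genes summed to at most 0.259 CPM. Leukocyte genes summed to 4.32 to 21.8 CPM, and genes of pericytes or stellate cells to 8.76 to 15.3 CPM. NOTCH3 and KCNJ8 made up most of the latter sum in every library. A list of 6 smooth muscle markers summed to 0.254 to 1.98 CPM. Of these, MYH11, ACTG2, DES and MYOCD had 16, 13, 3 and 4 UMIs in all 8 libraries together, and LMOD1 and SYNPO2 made up the rest.

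FN1 was nearly silent at day 2 and rose in both genotypes, but at different times. WT cultures held 0.113, 263, 93.1 and 155 CPM of FN1 at day 2, 5, 7 and 9. CF cultures held 3.23, 5.99, 404 and 431 CPM on the same days. The WT level was high from day 5 on and highest on that day, whereas the CF level stayed low until day 5 and exceeded every WT library at day 7 and 9. At day 5 FN1 was 44.0-fold lower in CF than in WT (counting interval 39.9 to 48.5), and at day 7 it was 4.34-fold higher (4.22 to 4.46).

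TAGLN, which encodes the actin-binding protein transgelin, had the same order of the genotypes from day 5 on. Its level was 0.140, 242, 107 and 268 CPM in WT and 1.40, 27.8, 500.4 and 591 CPM in CF. At day 2 its ratio of CF to WT was 10.0 (5.96 to 18.0), but 118 of the 143 CF UMIs lay in 5 cells described further on, and without them the ratio was 1.75 with an interval of 0.899 to 3.51 that included 1. CALD1, the gene of caldesmon, which ties actin to myosin and tropomyosin, stood at 2.24, 560.1, 267 and 316 CPM in WT and at 3.06, 23.7, 367 and 437 CPM in CF. For both genes the day 5 library was far lower in CF than in WT, by 8.70-fold for TAGLN (8.31 to 9.11) and 23.6-fold for CALD1 (22.5 to 24.8), while at day 7 and 9 CF was the higher. The excess at day 9 was 2.20-fold for TAGLN (2.16 to 2.24) and 1.38-fold for CALD1 (1.36 to 1.41).

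ANKRD1 rose from almost no UMIs. The WT libraries held 0.0611, 64.4, 17.2 and 87.6 CPM, and the CF libraries held 0.156, 7.00, 188 and 165 CPM. The day 2 values rested on 7 UMIs in WT and 16 in CF. ANKRD1 fell in WT from day 5 to day 7, to 0.266 of its level (0.251 to 0.282), while in CF it rose 26.9-fold (24.6 to 29.5) over the same step.

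The remaining members with substantial levels were already present at day 2. PALLD was at 44.1, 202, 126 and 147 CPM in WT and at 27.6, 34.1, 111 and 116 CPM in CF, so it was lower in CF on every day when whole libraries were compared. Against WT cells of clusters low in SOX2, which are described further on, it was higher in CF by 1.14 at day 7 and 0.18 at day 9 on the log2 scale. MYL9, the regulatory light chain of myosin, was at 6.75, 81.3, 60.7 and 102 CPM in WT and at 2.07, 27.7, 111 and 111 CPM in CF. The MYL9 level in CF was below WT at day 2 and 5, above it at day 7, and 1.09-fold that of WT (1.05 to 1.13) at day 9. TPM1, a tropomyosin that winds along actin filaments, was at 77.3, 257, 218 and 301 CPM in WT and at 71.3, 214, 441 and 478 CPM in CF. The TPM1 level differed least of these at day 5, where CF held 0.833 of the WT level (0.816 to 0.849).

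ACTA2, TPM2 and CNN1, which are among the best known smooth muscle genes, were rare. ACTA2, the smooth muscle actin, was at 0.812, 1.55, 1.05 and 1.73 CPM in WT and at 1.20, 0.350, 23.9 and 9.34 CPM in CF. TPM2 was at 0.0593 to 0.106 CPM in the WT libraries and at 0.303, 0.168, 7.40 and 1.74 CPM in CF. CNN1, the gene of calponin 1, had 6 UMIs in all, 4 of them in WT and 2 in CF. It was at 0 in 4 libraries, where the upper limit of the Poisson interval was 0.0322 to 0.0738 CPM. The CF values of ACTA2 and TPM2 at day 7 and 9 came mostly from 1 cell in each library, as described further on.

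**Figure D1:**
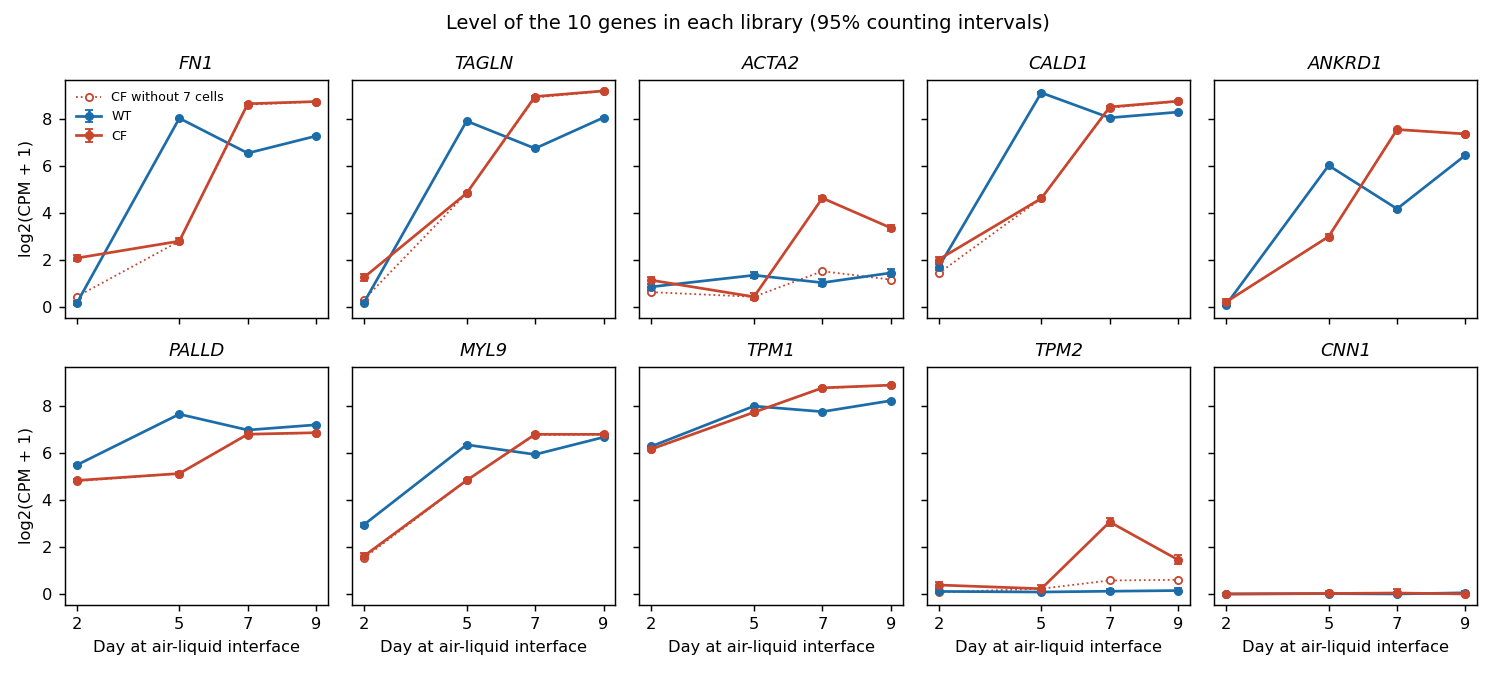
Level of each of the 10 genes (log2 of CPM plus 1) by day at the air-liquid interface in the 4 WT (blue) and 4 CF (red) libraries, with 95% Poisson intervals, and CF again without 7 cells that carried fibroblast and pericyte genes (open circles, dotted). FN1, TAGLN, CALD1 and ANKRD1 were high at day 5 in WT and at day 7 in CF, and without the 7 cells ACTA2 and TPM2 in CF stay at or below 1.87 and 0.520 CPM.

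Across the set, the CF minus WT difference on the log2(CPM + 1) scale had a median of 0.27 at day 2, -2.03 at day 5, 1.56 at day 7 and 0.78 at day 9. Over all 7899 to 8151 genes that reached 10 CPM in WT or CF on the day, the medians were -0.0013, -0.047, 0.14 and 0.088, respectively. At least 2-fold differences on that scale were counted over the members with any UMI, 9 at day 2 and 10 later. At day 2, 2 members were higher in CF and 1 was lower, beside 4.33% and 4.06% of all those genes. At day 5, none was higher (2.25% of all) and 6 were lower (4.08% of all). At day 7, 6 were higher (4.93% of all) and none lower (2.83%), and at day 9, 4 were higher (3.56%) and none lower (3.78%). Those shares cover genes of at least 10 CPM, whereas several members lay below that level. Of the members that reached it (2, 7, 8 and 7 by day), 0, 0, 5 and 2 were higher and 0, 6, 0 and 0 lower, so none of the 3 day 2 calls was among them. Without 7 CF cells that are described further on, the counts higher in CF became 0 at day 2 (4.33% of all genes), 4 at day 7 (4.91%) and 2 at day 9 (3.54%). The median of the members then turned to -0.13 at day 2 and was 0.66 at day 7 and 0.46 at day 9. With equal weight for each deposited class, 0 members were higher (3.40%) and 1 lower (4.11%) at day 9. Since these contrasts were used to choose the genes, nothing is read from the counts or from their direction.

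The day 5 difference changed with the cells that were compared. The carrier clusters defined next were chosen for high levels of these genes, so leaving them out removes cells with high levels by rule. At day 5 they held 20.6% of the WT UMIs and 0.532% of the CF UMIs. Without them the day 5 median was 0.072. TAGLN, ANKRD1, MYL9 and TPM1 were then higher in CF by 0.49, 0.12, 0.47 and 0.28 on the log2 scale. FN1, CALD1 and PALLD kept a 2-fold or larger deficit in CF, at -2.05, -1.61 and -1.11, so that 3 members were lower (3.06% of all genes) and 0 higher (2.36%). The day 7 excess changed as well, to a median of 0.050, with FN1 at -0.022, ACTA2 at -0.23 and CALD1 at -1.48. ANKRD1 (1.34) was the 1 member still past 2-fold upward (4.84% of all genes), and CALD1 the 1 past it downward (2.86%). At day 9 the median was 0.46, FN1 (1.76), TAGLN (1.51) and ANKRD1 (1.09) passed 2-fold upward (4.67%), and PALLD passed it downward (5.05%). The transcription factor SOX2 was at most at 1.08 CPM in the CF clusters, and 12 WT clusters held under 10 CPM of it. Those clusters held 1801 WT cells at day 5 and 1276 at day 7. Against these cells alone, the day 5 median was 0.30, with 2 members past 2-fold upward in CF (3.98% of all genes) and 0 downward (3.17%). The day 7 median was 3.51, and 9 members passed 2-fold upward in CF, beside 6.36% of all genes. These 9 included ACTA2 and TPM2, for which 92.2% and 93.4% of the CF UMIs at day 7 lay in 1 cell. Of the 6 WT carrier clusters only 1 was SOX2-low, with 1 cell at day 5 and 8 at day 7. The WT side thus held nearly no carrier cells on these days, while CF kept its own. Against the SOX2-low WT cells, only FN1, PALLD and ACTA2 were lower in CF at day 5, by -0.74, -0.76 and -0.21 on the log2 scale.

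The clusters are those of the deposited cell table, made separately for WT (41 clusters) and CF (30). A cluster of at least 50 cells was called a carrier where at least 6 of the 10 genes were 2-fold or more above the other cells of its genotype. These calls describe the clusters and test nothing, because the same genes took part in the clustering. By this rule WT had 6 carrier clusters, numbered 2, 5, 8, 20, 23 and 36, and CF had 3, numbered 3, 11 and 23. The deposited class of WT clusters 2, 5, 8, 20 and 23 was ductal and that of WT cluster 36 centroacinar, the name for the cells between duct and acinus. All 3 CF carriers had the class centroacinar.

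WT cluster 2 was the strongest WT carrier, with 1051 cells, of which 678 came from day 5, 52 from day 7 and 321 from day 9. It held 1439 CPM of FN1, 1518 of TAGLN, 2789.9 of CALD1, 457 of ANKRD1, 806 of PALLD, 416 of MYL9 and 549 of TPM1. FN1 was 23.4-fold and ANKRD1 22.5-fold above the other WT cells. All 10 genes passed the 2-fold rule there, beside 12.6% of genes with at least 10 CPM in the cluster, but CNN1 did so on 1 UMI and TPM2 on 6, and ACTA2 was only at 3.29 CPM.

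WT cluster 5 (997 cells, 9 genes past the rule, beside 9.26% of all genes) held less FN1 (669 CPM), TAGLN (826), CALD1 (1917), ANKRD1 (176), PALLD (554) and MYL9 (317) than cluster 2. Its TPM1 was higher than there, at 601 CPM, and its ACTA2 was alike, at 3.37 CPM. WT cluster 20 was shallow, with a median of 3396.5 UMIs a cell, and 30.7% of all genes passed 2-fold there beside 7 of the 10. It had more FN1 than cluster 2, at 1927 CPM, and less TAGLN, at 432. WT clusters 23 and 36 had 6 and 8 genes past the rule, beside 9.77% and 3.24% of all genes.

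WT cluster 8 was of another kind. Nearly all of its cells, 801 of 810, came from day 9, it was the only WT carrier among the 12 SOX2-low clusters, and it had little FN1, 22.8 CPM, which was 0.178 of the level in the other WT cells. It held 369 CPM of TAGLN, 195 of MYL9 and 759 of TPM1, the highest TPM1 of the WT clusters with at least 50 cells. Its call rested on 3 UMIs of CNN1, all in 1 cell, and was lost when at least 10 UMIs of a gene were asked for. The other genes past 2-fold were TAGLN, ACTA2, ANKRD1, MYL9 and TPM1, beside 5.05% of all genes.

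CF cluster 11 was the strongest carrier in CF. It had 401 cells, 5 from day 2, 2 from day 5, 128 from day 7 and 266 from day 9, and 9 of the 10 genes passed the rule beside 12.0% of all genes. It held 2244 CPM of FN1, 3037 of TAGLN, 2185 of CALD1, 963 of ANKRD1, 470.3 of PALLD, 419 of MYL9 and 809.9 of TPM1. CF cluster 3 (673 cells, 521 of them from day 9, 7 genes past the rule beside 9.40% of all genes) had 550.2 CPM of FN1, 821 of TAGLN and 820.1 of TPM1. CF cluster 23 had 205 cells of a median of 3240 UMIs. It had 7 genes past the rule, but 36.6% of all genes passed 2-fold there, and its FN1, 3067 CPM, was the highest of the CF clusters with at least 50 cells.

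FN1 did not keep a fixed ratio to the contractile genes. CF cluster 27, which had 5 genes past 2-fold and thus missed the rule, held 1524 CPM of FN1 and 57.2 of TAGLN. It was also shallow, with a median of 4718 UMIs a cell and 17.4% of UMIs from mitochondrial genes. The share of all genes past 2-fold was not counted there. In the shallow carriers, WT cluster 20 and CF cluster 23, it was 30.7% and 36.6%. WT cluster 14 was the other cluster with 5 genes past the rule, at 196 CPM of FN1 and 340 CPM of TAGLN. Its share of all genes past 2-fold was not counted either, so nothing is read from its 5 genes. Thus WT cluster 8 was rich in TAGLN and poor in FN1, and CF cluster 27 was the reverse.

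**Figure D2:**
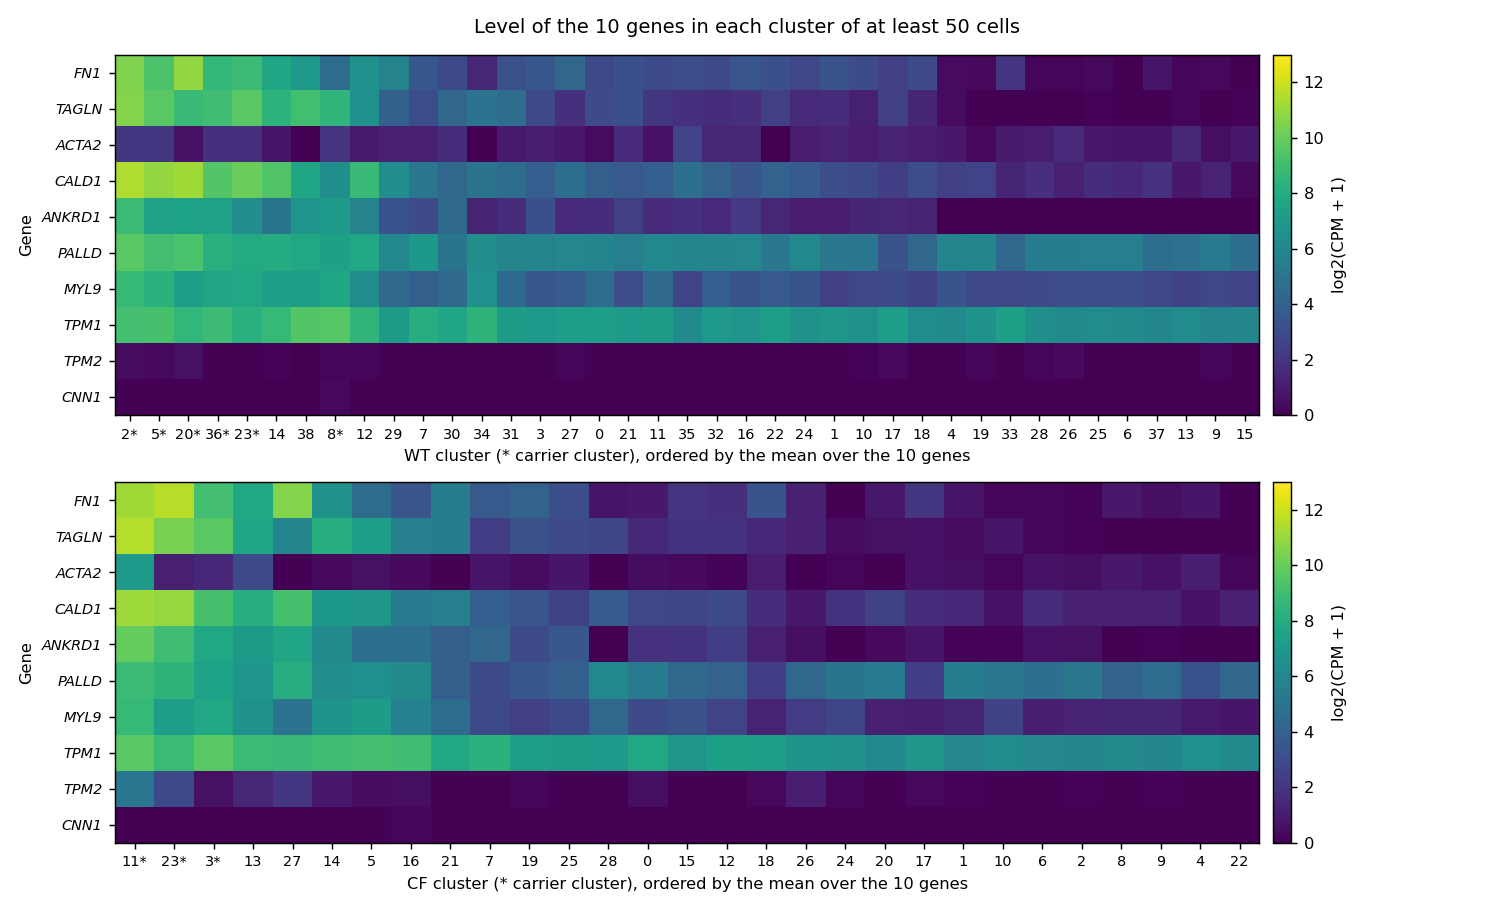
Level of the 10 genes (rows, log2 of CPM plus 1 as colour) in each cluster of at least 50 cells of WT (top) and CF (bottom), with carrier clusters starred and clusters ordered by the mean over the genes. WT clusters 2, 5 and 20 and CF clusters 11, 23 and 3 lead, WT cluster 8 has TPM1 and TAGLN with little FN1, and the colour of ACTA2 and TPM2 in CF cluster 11 includes the 7 cells described in the text.

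The share of cells in carrier clusters also differed between days and genotypes. In WT it was 0.0161%, 30.1%, 13.9% and 30.6% of cells at day 2, 5, 7 and 9. In CF it was 0.444%, 0.909%, 18.4% and 37.7%. At day 5 the Clopper-Pearson interval of WT was 28.9 to 31.4% and that of CF 0.589 to 1.34%. At day 9 the interval of CF, 35.8 to 39.7%, lay above that of WT, 29.3 to 31.8%. Without cluster 8, whose call rested on CNN1 in 1 cell, the WT share at day 9 was 15.8% (14.8 to 16.8%), from 854 of 5416 cells. These clusters were chosen for the genes, so the shares are a description. They did not order the libraries as the levels did, since CF day 7, with 18.4% of cells in carriers, had more FN1, TAGLN, ANKRD1 and TPM1 than WT day 5 or day 9, with 30.1% and 30.6%.

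Carrier cells held most of the FN1 of a culture wherever FN1 was high. FN1 was among the genes that chose the carriers, so these shares are a description. They held 94.5% of its UMIs in WT at day 5, 65.9% at day 7 and 91.6% at day 9, and 93.3% and 89.8% in CF at day 7 and 9. At day 5 in CF they held 38.8% of the few FN1 UMIs. Much of TPM1 lay elsewhere, with 25.5 to 62.1% in carriers in WT from day 5 on and 44.4 and 53.9% in CF at day 7 and 9. Without cluster 8 the WT carriers of day 9 held 20.7% of TPM1 in place of 62.1%, and 89.2% of FN1. WT cluster 14, which narrowly missed the rule, had 579 of its 667 cells at day 7, the day with the lower WT share.

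Within carrier cells the genotypes also differed in level. At day 5, when CF had 25 carrier cells, most members were lower in them than in the WT carriers. The ratio of CF to WT was then 0.362 for FN1 (0.309 to 0.421), 0.780 for TAGLN (0.698 to 0.870), 0.331 for CALD1 (0.295 to 0.369) and 0.640 for ANKRD1 (0.499 to 0.809), while TPM1 was higher, with a ratio of 1.29 (1.14 to 1.45). At day 7 FN1 stood at 583 CPM in the WT carriers and 1689 in the CF carriers, a ratio of 2.90 (2.81 to 2.99). TAGLN had a ratio of 3.29 (3.19 to 3.40) and ANKRD1 of 7.39 (6.89 to 7.93), while CALD1 was at 1532 and 1502 CPM, a ratio of 0.981 (0.957 to 1.01) whose interval included 1. Without WT cluster 8 (8 cells at day 7) that ratio was 0.963 (0.940 to 0.988). At day 9 the ratios were 2.51 for FN1 (2.45 to 2.57), 1.99 for TAGLN (1.95 to 2.02), 1.29 for CALD1 (1.27 to 1.32) and 0.956 for MYL9 (0.921 to 0.992). These day 9 values rest on WT cluster 8, which held 801 of the 1655 WT carrier cells of that day and little FN1. Without it the WT carriers had 969 CPM of FN1, and the ratios were 1.20 for FN1 (1.17 to 1.23), 1.22 for TAGLN (1.20 to 1.24), 0.634 for CALD1 (0.622 to 0.646) and 0.703 for MYL9 (0.675 to 0.733), so that CALD1 turned to lower in CF. PALLD was lower in CF carriers at day 7 and 9, at 0.708 and 0.856 of the WT level, the latter 0.541 without cluster 8. The class names and the makeup of the carriers differ between the genotypes, so these ratios compare sets of cells, not a shared cell type.

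The genes met in the same cells. Each cell was thinned at random to 3000 UMIs, which left out 39 to 411 cells of a library. At CF day 7 this kept 1196 of 1607 cells but 279 of the 295 carrier cells. Most cells left out there were thus outside the carriers, and the shares are of the cells kept. At least 5 of the 10 genes then had a UMI in 0 of 6144 WT cells at day 2, with a Clopper-Pearson upper limit of 0.0600%. At day 5, 7 and 9 the share was 16.6%, 6.67% and 9.39% of WT cells. In CF the shares were 0.112%, 0.518%, 15.7% and 20.8%. At day 2 this share came from 5 cells, 4 of them among the 7 CF cells with stromal genes described further on, and without those it was 0.0224% (1 of 4455 cells). The order of the genotypes from day 5 on was also seen in whole cells, of which 0.0161%, 28.2%, 18.5% and 21.3% passed for WT. For CF the unthinned shares came to 0.156%, 4.98%, 24.1% and 38.2%. In the carriers 29.3 to 55.6% of thinned WT cells from day 5 on and 61.3% and 48.6% of thinned CF cells at day 7 and 9 held at least 5 of the genes, against 0.681 to 3.24% of the other cells of those libraries. The lowest of these carrier shares, 29.3% in WT at day 9, was 53.1% without cluster 8. Since the carriers were chosen for the genes, their contrast with the other cells is a description.

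FN1 alone had a UMI in 80.2% of thinned carrier cells in WT at day 5 and in 4.26% of the other cells, with medians of 12065 and 18717 UMIs before thinning. In CF at day 7 it was 74.9% and 5.67%, with medians of 27348 and 22348 UMIs. The carrier rule used FN1, so this contrast is a description too. At day 2, when nearly no cell of the WT culture carried FN1, 0.0163% of thinned WT cells had an FN1 UMI. Free RNA in the droplets gives UMIs in cells that do not express a gene, and its part in the FN1 of other cells was not tested.

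**Figure D3:**
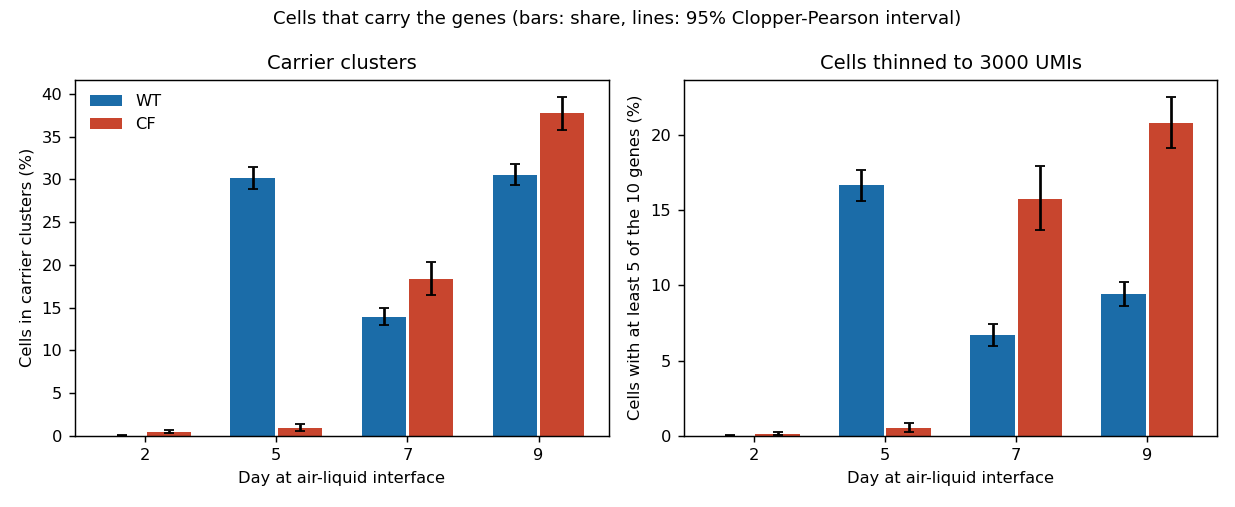
Percent of cells in carrier clusters (left) and percent of cells, thinned to 3000 UMIs, with a UMI of at least 5 of the 10 genes (right), by day and genotype, with 95% Clopper-Pearson intervals that cover counting error only. Day 5 has tall bars for WT only, 30.1% and 16.6%, and at day 9 CF leads, with 37.7% and 20.8%.

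ACTA2 and TPM2 in CF were set by very few cells. Their levels led to a search for cells with genes of fibroblasts and pericytes, using 13 markers of the fixed lists and a minimum of 6 of them in a cell. That minimum was chosen once the values were known. It was reached by 7 CF cells, 5 at day 2, 1 at day 7 and 1 at day 9, and by 0 WT cells, and no other cell of any library held more than 3 of the 13. All 7 had been placed in CF cluster 11. The 8 fibroblast markers summed to 2.30 to 5.86 CPM in the WT libraries, with 2 to 5 of them at 0, and to 8.54, 1.54, 32.6 and 21.8 CPM in CF at day 2, 5, 7 and 9, with 3 at 0 at day 5 and none at 0 on the other days. PDGFRA made up most of each WT sum, with 262, 337, 383 and 467 UMIs by day.

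The day 7 cell had 57991 UMIs and held 766 of the 831 ACTA2 UMIs of its library and 240 of the 257 TPM2 UMIs. The day 9 cell held 405 of 467 ACTA2 UMIs and 61 of 87 TPM2 UMIs. At day 2 the 5 cells held 295 of the 331 FN1 UMIs of the library, 118 of 143 TAGLN UMIs and 67 of 123 ACTA2 UMIs. They thus held 89.1% of the FN1 at day 2 but only 2.91% and 0.343% at day 7 and 9.

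These cells carried stromal genes and, in 6 of 7, hardly any epithelial ones. Together they had 4853 CPM of COL1A1, 1208 of COL3A1 and 237 of PDGFRB, which are genes of fibroblasts and pericytes. The cells were selected by these markers, so the levels are no separate evidence. Other markers of the same lists were nearly absent. PDGFRA, CSPG4 and KCNJ8 had at most 1 UMI in any of the cells, and DPT had 0. The CF day 2 library held 997 UMIs of KCNJ8 and 535 of NOTCH3, nearly all in other cells. The day 7 and day 9 cells also had 59 and 38 UMIs of RGS5, a pericyte marker. The 6 smooth muscle markers, which did not include ACTA2, summed to 26.4 CPM. Keratins and other epithelial genes came to 0 to 4 UMIs in 6 of the 7 cells, and the fifth day 2 cell had 109, with 24 of KRT7 and 50 of KRT19. ANKRD1 had no UMI in any of the 7, although the other cells of the cluster held 982 CPM of it.

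CF cluster 11 without these cells held FN1 at 2209 CPM, TAGLN at 3006 and CALD1 at 2156, whereas ACTA2 came to 6.83 CPM and TPM2 to 0.603. It was rich in keratins, with 5133 CPM of KRT7 and 3543 of KRT19. COL3A1, PDGFRB and RGS5 were at 0 UMIs there. COL1A1 stood at 50.7 CPM, from 505 UMIs, against 0.321 CPM in the CF clusters that were no carriers and 0.0183 CPM in such WT clusters.

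Without the 7 cells, CF held 0.548, 0.350, 1.87 and 1.24 CPM of ACTA2 over the days and 0.490 and 0.520 CPM of TPM2 at day 7 and 9. The ACTA2 ratio of CF to WT was then still above 1 at day 7, at 1.79 (1.28 to 2.49), but at day 9 it was 0.716 (0.523 to 0.969) in place of 5.39 (4.47 to 6.53). The FN1 ratio changed at day 2, from 28.5 (16.4 to 54.1) to 3.10 (1.61 to 6.38), but stood at 4.22 and 2.77 at day 7 and 9. No WT cell met the minimum, and WT cluster 2, at 3.29 CPM of ACTA2 and 0.346 of TPM2, had 2.77 CPM of COL1A1. TPM2 at day 7 remained 5.81-fold higher in CF (2.29 to 16.6), from 17 UMIs in CF and 7 in WT, and at day 9 4.90-fold higher (2.23 to 11.9), from 26 and 9 UMIs.

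**Figure D4:**
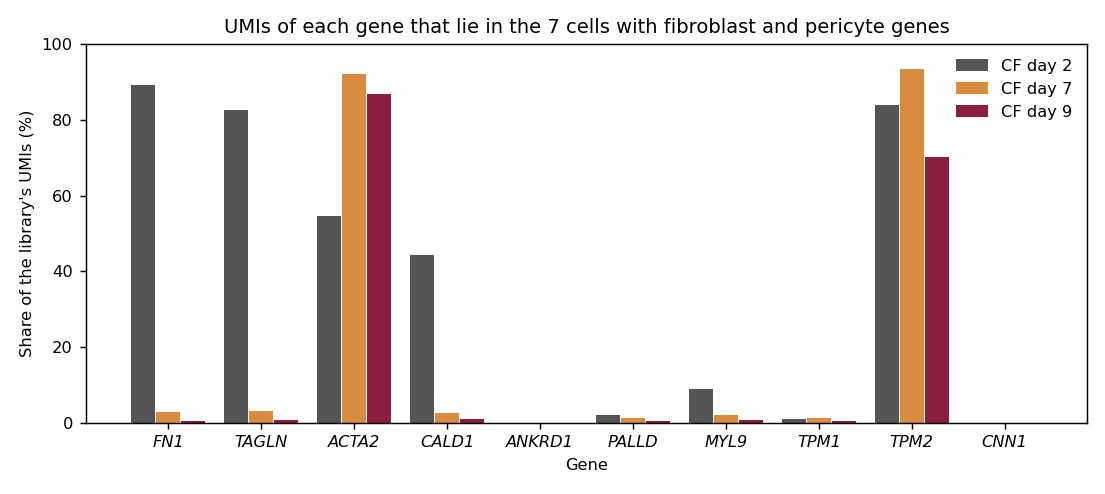
Percent of all UMIs of each gene in the CF libraries of day 2, 7 and 9 that lay in the 7 cells with at least 6 of 13 fibroblast and pericyte genes. The cells hold 70.1 to 93.4% of TPM2 and 54.5 to 92.2% of ACTA2, most of FN1 and TAGLN at day 2 only, and none of ANKRD1.

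**Figure D5:**
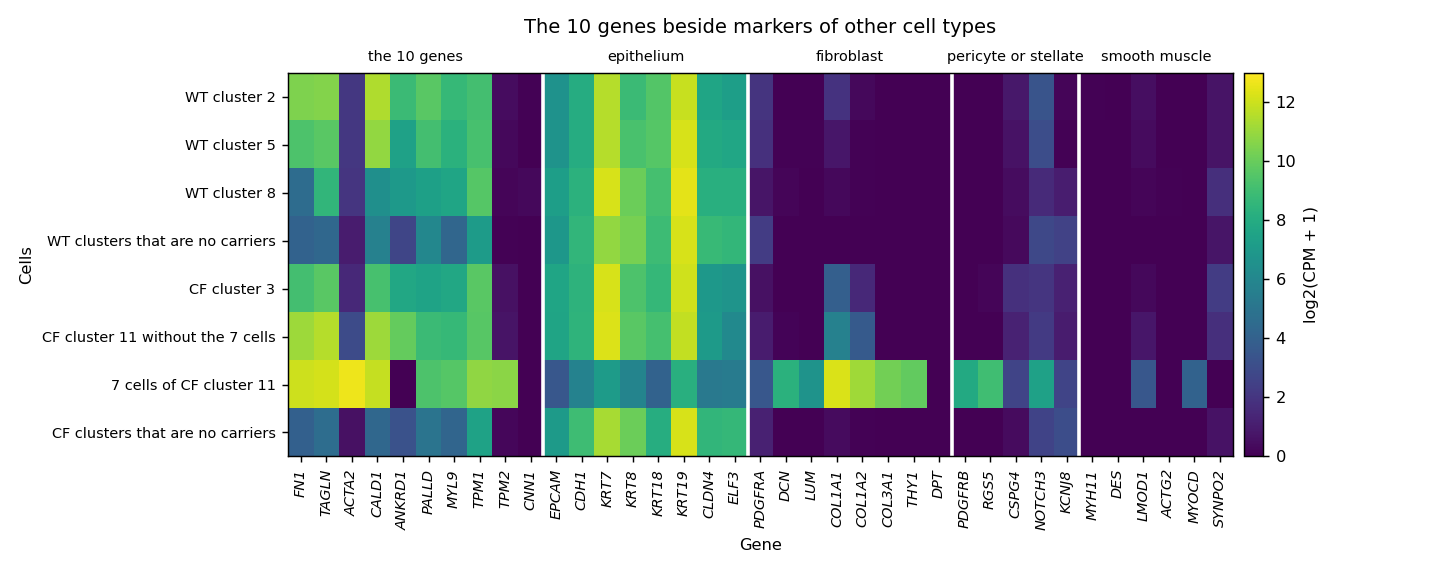
Level (log2 of CPM plus 1 as colour) of the 10 genes and of epithelial, fibroblast, pericyte or stellate, and smooth muscle markers in sets of cells named at the left. The 7 cells, pooled here and selected by markers that include collagens and RGS5, stand apart by collagens, RGS5, ACTA2 and TPM2 and by low keratins. All RGS5 and most ACTA2 and TPM2 of that row came from the day 7 and day 9 cells. The other carrier cells drawn combine FN1 and TAGLN with KRT7 and KRT19, except WT cluster 8, which had little FN1.

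The deposited classes with the most FN1 were not the same in WT and CF. FN1 in the WT class ductal was at 0.0929, 421, 161 and 342 CPM by day, against 55.9, 53.6 and 40.8 CPM in the WT class centroacinar from day 5 on. In CF the class centroacinar held 18.0, 10.1, 650.4 and 543 CPM, and the class ductal 0.348, 0.807, 7.54 and 19.4 CPM. The 18.0 CPM of day 2 included the 5 cells with stromal genes. TAGLN followed, with 609.6 CPM in WT ductal cells at day 9 and 749 CPM in CF centroacinar cells. In the class named centroacinar_progenitor, FN1 stayed at or below 19.5 CPM in every library.

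The genes with levels most like FN1 over clusters were searched within each genotype, among the 10647 WT and 10508 CF genes that reached 10 CPM in a cluster. PAPPA, a protease of IGF-binding proteins, had a Pearson r of 0.928 over 39 WT clusters and of 0.962 over 29 CF clusters. Of the 10 genes ranked highest by Pearson r, 4 were shared by the genotypes, namely PAPPA, CRIM1, LAMA4 and BPGM. By Spearman ranks none of them was shared. PAPPA, LAMA4 and BPGM were then outside the 10 highest in both genotypes, and CRIM1 was outside them in CF. For the mean over the 10 genes, the shared ones by Pearson r were SPARC, PAPPA, SPP1 and BPGM. By Spearman ranks SPARC and SPP1 stayed among the 10 highest in both genotypes, but PAPPA and BPGM in WT only. SPARC, a matrix protein that binds collagen, had an r of 0.968 in WT and 0.945 in CF, and SPP1, the gene of osteopontin, 0.959 and 0.962. The clusters share libraries and differ in depth, and the clustering used these genes, so the values describe likeness only.

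Among the members that reached 10 CPM in a cluster, ACTA2 was the least like FN1 in CF, with an r of 0.533 over clusters, and that value includes the 7 cells. The r of the other such members with FN1 ranged from 0.810 for TPM1 to 0.965 for CALD1 in WT. In CF it ranged from 0.689 for PALLD to 0.965 for ANKRD1.

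Other genes of the same pathways were taken from 5 lists and compared at the level of whole libraries, where 4.33%, 2.25%, 4.93% and 3.56% of all genes passed 2-fold upward in CF and 4.06%, 4.08%, 2.83% and 3.78% downward at day 2, 5, 7 and 9. Of 12 smooth muscle genes, 6 reached 10 CPM in a library. MYLK alone of the 6 had a 2-fold or larger excess in CF, at day 7 and 9, and it was lower at day 2, by -1.13 on the log2 scale. MYLK, the kinase of the myosin light chain, was at 3.69, 4.23 and 3.83 CPM in WT and at 5.34, 18.3 and 16.9 CPM in CF from day 5 on. SMTN was the 1 gene past 2-fold the other way at day 5 (-1.28) and SRF at day 9. SRF, a transcription factor of contractile genes, was at 26.0 CPM in WT and 12.3 in CF on that day. CNN2 and CNN3, relatives of CNN1 found in many cells, had log2 differences of -0.49 to 0.42 and of -0.98 to -0.16 over the days.

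Of 16 genes of the general actin cytoskeleton that reached 10 CPM, FLNA at day 7 (1.18) was the only one with a difference past 2-fold on any day, with list medians of 0.16, -0.39, 0.35 and 0.21. ACTG1, a cytoplasmic actin, had log2 differences of -0.62, -0.87, -0.32 and -0.25, and CSRP1 of -0.57, -0.95, 0.22 and -0.24. TPM3 lay between 0.085 and 0.46 and ACTN4, an actin crosslinker, between 0.068 and 0.53. Inside the carriers many of these genes were higher. Relative to the cells of the genotype outside the carriers, 11 of 16 passed 2-fold in WT cluster 2, beside 10.8% of the 8698 genes that reached 10 CPM in a library, 12 of 16 in CF cluster 11 without the 7 cells, beside 9.59%, and 8 of 16 in CF cluster 3, beside 8.04%. These clusters were chosen for the members' levels, so the counts are a description.

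Of 8 targets and partners of YAP and TEAD, CCN2 and F3 passed 2-fold in CF at day 7 and F3 also at day 2 (1.94), and none was lower by as much. CCN2, a secreted matricellular protein, was at 472, 566 and 836 CPM in WT and at 919, 1464 and 1268 CPM in CF at day 5, 7 and 9. F3, the gene of tissue factor, was at 389, 327 and 441 CPM in WT and at 352, 808 and 788 CPM in CF on those days. CCN1, a relative of CCN2, had differences of -0.95, -0.40, -0.043 and -0.63, and LATS2 of -0.22 to 0.47. Beside these, ANKRD1 stood at -3.03 at day 5 and 3.38 at day 7.

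Of 7 receptors and matrix partners of fibronectin, 4, 1, 3 and 2 passed 2-fold upward in CF at day 2, 5, 7 and 9, beside 4.33%, 2.25%, 4.93% and 3.56% of all genes, and 1 passed it downward at day 5, beside 4.08%. Without the 7 cells the count at day 2 was 3, since SPARC then stood at 1.94 CPM in CF in place of 7.64. Its difference was then 0.21 on the log2 scale, below 2-fold. The other 4 lists had the same counts without those cells on all days. SPARC was at 159, 124 and 166 CPM in WT and at 95.5, 787 and 922 CPM in CF at day 5, 7 and 9, so its order between the genotypes was that of FN1. ITGB6, the integrin subunit that pairs with integrin alpha v to bind fibronectin, had a difference of -1.07 at day 5 and of -0.078 to 0.27 on the other days. FBN1, the gene of fibrillin 1, was higher in CF on every day, by 1.58, 2.31, 1.82 and 1.04 on the log2 scale, and in CF it was lower in cluster 11 without the 7 cells (15.5 CPM) than outside the carriers (33.3 CPM). SDC4, a syndecan that assists fibronectin binding, had differences of -0.52 to 0.12.

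Among 5 genes of the epithelial-mesenchymal transition that reached 10 CPM, VIM and PRRX2 passed 2-fold upward in CF at day 7 and 9, PRRX2 also at day 2 (1.30), and none passed it downward. That is 1, 0, 2 and 2 of the 5 by day, beside 4.33%, 2.25%, 4.93% and 3.56% of all genes. VIM, the intermediate filament of mesenchymal cells, was at 42.3, 39.0 and 52.9 CPM in WT and at 35.7, 232 and 261 CPM in CF from day 5 on. CF cluster 11 without the 7 cells held 848 CPM of VIM and WT cluster 2 held 119. PRRX2 was at 51.1 CPM in those CF cells and 1.90 in WT cluster 2. SNAI2, a repressor of epithelial genes, was at 201 CPM in WT cluster 2 and 131 in CF cluster 11 without the 7 cells, against 32.5 and 34.5 CPM outside the carriers. CDH1, the epithelial cadherin, was at 262 and 354 CPM in those sets. The whole CF libraries of day 7 and 9 without the 7 cells held more of it, 521 and 525 CPM. Another 7 genes of this list, ZEB1, ZEB2, TWIST2 and CDH11 among them, stayed under 10 CPM in every library. CDH2, the neural cadherin and also one of these, reached 33.6 CPM in CF cluster 11 without the 7 cells and 7.78 in WT cluster 2, and it is named after its values were seen.

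The positions of the genes are those of the RefSeq annotation of the ferret assembly ASM1176430v1.1, whose table used here names no chromosome for them. FN1 spans 19735613 to 19801971 and TAGLN 22027174 to 22032649 of their sequences. MYL9 lies inside the uncharacterised gene LOC101676675 (38 UMIs), TPM1 overlaps LOC101688776 (8791 UMIs), and PALLD overlaps CBR4 (7211 UMIs) and LOC106006404 (12 UMIs). The reads had been counted on another, improved ferret annotation named in the study's methods, which was not used here, so these overlaps need not hold in it. How reads in overlaps were divided is not given in the sources used here, and the TPM1 and PALLD levels are uncertain to that extent.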

How the data were processed

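Per the labels and the study's methods, the authors aligned 10x reads to the ferret assembly ASM1176430v1.1 with Cell Ranger 5.0.1, counted them on an improved ferret annotation, and filtered cells in Seurat under R 4.1.2, removing doublets with DoubletFinder before the cell table was made. The deposited matrices hold raw UMI counts per gene and barcode. The deposited cell table of the authors gives each retained cell (32945 in all) its library, its percent of mitochondrial UMIs, a Seurat cluster made within its genotype and a class named by Clustifyr. The normalized table, pseudotimes and cell cycle scores were not used here.

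Counts of retained cells were summed per library, class and cluster and divided by the sum (CPM). Differences are log2(CPM + 1), a scale that understates changes of low genes. Intervals at 95% are exact Poisson for CPM, exact conditional binomial for ratios and Clopper-Pearson for shares, and cover counting error only. With 1 library per genotype and day, no test was made and no p-value is given. Library totals bound the precision, since 3 UMIs equal 0.0262 to 0.0864 CPM.

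The members and lists were chosen with earlier results of these data known. Genes named beyond the 10 members were, by rule, the 10 most correlated over clusters and the 2 highest and 2 lowest of each list by mean difference over the days, at 10 CPM or more. Others were named after their values were seen, and 1 gene is not reported here. The markers used to search for stromal cells came from fixed lists. The alternatives were other scalings (edgeR 4.0.16, DESeq2 1.42.0), a pseudocount of 5, other cell sets and other carrier rules. The ratio intervals were tested on simulated Poisson counts. These do not hold the crowding of UMIs in single cells, so the test covers counting error only. Python 3.11.15 and scipy 1.17.1 were used.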

Additional observations from a re-analysis of the deposited data

Results flagged for a closer look

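For each member, the change between neighbouring days was set beside that of the other genotype, in 30 steps. In 11 of them the WT and CF libraries moved in opposite directions, each by more than its counting interval, and these are listed as CF minus WT on the log2(CPM + 1) scale. The difference was not tested, since each genotype and day is 1 library of pooled animals.

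From day 5 to day 7, 8 members fell in the WT libraries and rose in the CF libraries. The difference was 7.35 for FN1, 6.41 for ANKRD1, 5.29 for TAGLN, 4.97 for CALD1, 4.52 for ACTA2, 2.38 for MYL9, 2.35 for PALLD and 1.28 for TPM1. The share of cells in carrier clusters moved along with it, from 30.1% to 13.9% in WT and from 0.909% to 18.4% in CF, and its part in the result was not tested. The WT fall was one of whole libraries. Outside the carriers, which were chosen for these genes, WT cells held 18.4 CPM of FN1 at day 5 and 35.5 at day 7. TAGLN, CALD1, ANKRD1, PALLD, MYL9 and TPM1 were also higher in those WT cells at day 7 than at day 5, and ACTA2 was lower. Without the 7 cells with fibroblast and pericyte genes, ACTA2 rose in CF by 1.09 over this step in place of 4.21.

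From day 7 to day 9, ANKRD1 rose in WT and fell slightly in CF, a difference of -2.48, with changes of 2.29 and -0.19. ACTA2 also moved in opposite directions from day 7 to day 9 (-1.69) and from day 2 to day 5 (-1.20). Without the 7 cells its change in CF was -0.36 and -0.20 over these steps, and the interval of the earlier one then included no change.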

How the results depend on the processing

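The day 2 counts of members at least 2-fold higher and lower in CF were 2 and 1, beside 4.33% and 4.06% of all genes. They became 1 and 0 against SOX2-low WT cells and 0 and 0 with a pseudocount of 5 CPM. The count higher was 1 with all barcodes and 0 without carrier clusters, and the count lower was 2 with equal weight for each class. The shares of all genes under these day 2 settings were not counted, so nothing is read from the counts. The cause of these shifts was not tested.

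TMM and DESeq2 scaling shifted the median of all genes by -0.16 and -0.16 at day 7 and -0.11 and -0.10 at day 9, and the median of the members became 1.40 and 1.40 at day 7 and 0.67 and 0.68 at day 9. With a pseudocount of 5 CPM the medians at day 5, 7 and 9 were -1.90, 1.14 and 0.56. Equal weight for each class gave 1.12 at day 7 and 0.060 at day 9, where 0 members were higher and 1 lower. With members of at least 10 CPM alone, the medians were -0.39 at day 2, -3.03 at day 5 and 0.66 at day 9.

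Against SOX2-low WT cells at day 5, the median turned to 0.30, with 2 members higher and 0 lower, and TAGLN (2.67), CALD1 (0.41), ANKRD1 (1.44), MYL9 (0.66) and TPM1 (0.54) turned to higher in CF. The medians at day 7 and 9 were 3.51 and 1.17. The SOX2-low WT cells held nearly no carrier cells at day 5 and 7, while CF kept its carriers. Carrier clusters were chosen for high levels of these genes, so leaving them out removes cells with high levels by rule. Without carrier clusters the day 5 median turned to 0.072, with 3 members lower, and TAGLN (0.49), ANKRD1 (0.12), MYL9 (0.47) and TPM1 (0.28) turned. FN1 (-0.022), ACTA2 (-0.23) and CALD1 (-1.48) turned at day 7 and ACTA2 (-0.68) at day 9, with medians of 0.050 and 0.46, 1 member lower on each day, and 1 higher at day 7 and 3 at day 9. Counting a change of sign of any size over members and days, 10 differences turned against SOX2-low WT cells (4 of them past 2-fold before), 11 without carrier clusters (6), 5 with equal weight for each class (0) and 4 without the 7 cells (1), and none under the scalings, the pseudocount of 5, all barcodes or cells of at least 3000 UMIs. Those not yet named were ANKRD1 at day 2 (-2.29), CALD1 at day 7 (-0.10) and CALD1 (-0.47), ANKRD1 (-0.013) and MYL9 (-0.83) at day 9 with equal weight. Against SOX2-low WT cells they were CALD1 at day 2 (-0.36), PALLD at day 7 (1.14) and PALLD (0.18), MYL9 (-0.059) and TPM1 (-0.064) at day 9. At day 2, ACTA2 (-0.23), CALD1 (-0.26) and TPM2 (-0.040) turned both without carrier clusters and without the 7 cells.

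Alternatives without the 7 cells, without WT cluster 8 (lost with at least 10 UMIs of a gene), or with clusters of a median of at least 5000 UMIs were chosen after seeing the data. Without the 7 cells, ACTA2 at day 9 turned to -0.29, the medians were -0.13 at day 2 (0.27 with them), 0.66 at day 7 and 0.46 at day 9, and 0 members at day 2, 4 at day 7 and 2 at day 9 were higher. The share of CF cells with at least 5 of the genes at day 2 was 0.0224% in place of 0.112%. The carriers were then the same clusters. At 3-fold, WT kept clusters 2 and 5 alone (2 clusters) and CF all 3. By a mean over libraries WT had 3 (2, 5 and 36) and CF 1 (cluster 11). WT had 5 carriers with at least 10 UMIs of a gene and 5 with deeper clusters, and CF had 3 and 2. With at least 10 UMIs the share of WT cells in carriers at day 9 was 15.8% in place of 30.6%, and of the 9 members with a ratio of CF to WT inside the day 9 carriers, 8 moved past their counting intervals.

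Cells with at least 7 of the 10 genes made up 1.66%, 0.482% and 1.02% of WT at day 5, 7 and 9 and 0.0224%, 0%, 3.43% and 3.62% of CF from day 2. In unthinned cells the shares with at least 5 reached 28.2%, 18.5% and 21.3% for WT and 4.98%, 24.1% and 38.2% for CF at day 5, 7 and 9. Spearman ranks shared 5 of 10 genes with Pearson for FN1 in WT and 2 of 10 in CF. For the mean over the 10 genes they shared 7 of 10 in WT and 3 of 10 in CF. No paired analysis was possible because each genotype and day has 1 library and the labels give no replicate numbers. The days are time points, not replicates.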
